A study of Homo sapiens with 4 samples.

Results

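The 7 keratin genes KRT7, KRT8, KRT10, KRT18, KRT19, KRT80 and KRT81 were examined in NSUN2 RIP-seq of PANC-1, an established human line from a ductal adenocarcinoma of the pancreas. The genes were named with earlier results of the same tables known, and KRT10 was chosen by its lower density after lactate, so the values below are a description. The 7 genes carried 16 of the 116484 merged peaks of the series. RIP-seq pulls down a protein with its bound RNA, and NSUN2 is a methyltransferase that forms 5-methylcytosine in RNA. The wild-type cells received 30 mM sodium lactate or ddH2O as the vehicle for 24 h. Each condition gave 1 library from the anti-NSUN2 pull-down (IP) and 1 from the lysate before it (input), 4 libraries in all. With 1 library per group there was no replicate, no test was possible, and the 95% intervals cover counting error only.

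Keratins are the intermediate filament proteins of epithelial cells. A filament is built from obligate pairs of an acidic type I and a basic type II chain. Among the genes here KRT10, KRT18 and KRT19 are type I, and KRT7, KRT8, KRT80 and KRT81 are type II. KRT8 and KRT18 form the basic pair of simple epithelia, KRT7 and KRT19 are classical markers of pancreatic ducts, KRT10 belongs to the suprabasal epidermis and KRT81 to hair. KRT7, KRT8, KRT18 and KRT19 were thus the ductal members by textbook knowledge.

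Peaks had been called by the authors in each IP against its own input. The lactate list held 12 peaks on all 7 genes among 48104 peaks, and the ddH2O list held 14 peaks on 6 genes among 95785. KRT8 had the most, with 4 lactate peaks and 7 ddH2O peaks. KRT81 was the gene without a peak in the ddH2O list. By annotated region, the lactate peaks lay in the 3' UTR in 4 cases, in another exon in 6 and in an intron in 2. The ddH2O peaks lay in the 3' UTR in 3 cases, in another exon in 6 and in an intron in 5. Over the whole lists, 15.4% of lactate peaks and 12.9% of ddH2O peaks lay in a 3' UTR, 19.8% and 21.8% in another exon, and 57.7% and 56.1% in an intron. An overlap of at least 1 base with a peak of the same gene in the other list was found for 10 of the 12 lactate peaks and 9 of the 14 ddH2O peaks. Over all peaks with a gene symbol the share was 57.9% of the lactate list and 29.3% of the ddH2O list. A q-value below 0.05 was listed for 9 of the 12 lactate peaks and 10 of the 14 ddH2O peaks, beside 42.7% and 48.6% of the whole lists. KRT7, with a q of 0.165 in the lactate list, passed it in the ddH2O list alone. The same held for an exon peak of KRT8 at chr12:52898297-52898951 in ddH2O. Its lactate counterpart had a q of 0.167 and a fold enrichment of 1.73. The median fold enrichment over input was 3.48 for the lactate peaks of the keratins, beside 3.24 over that whole list. In ddH2O it was 3.43 for the keratins and 3.03 over the list.

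Reads were also described after merging the peaks of both lists. The density of a merged peak is its reads per kb in a window of 2000 bases around its summit, after the MAnorm scaling of the authors. Since the windows have 1 length, densities can be compared between genes as IP signal. They are not divided by input, so an order by density is not an order of enrichment. The median merged peak held 5 lactate IP reads and 7 ddH2O IP reads.

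The type I chain KRT18 (ENSG00000111057) had the densest keratin peak, at chr12:52951444-52952931 (GRCh38, plus strand), annotated as an exon. Its density was 2455 with lactate and 2254 with ddH2O, and its window held 2737 and 8085 reads. It ranked 6 among the 116484 merged peaks by mean log2 density. Its type II partner KRT8 (ENSG00000170421) had its densest peak at chr12:52897151-52897625 on the minus strand. There the density was 1356 with lactate and 1182 with ddH2O, from 1592 and 4024 reads, and the peak ranked 28. A second exon peak of KRT8, at chr12:52898297-52898951, had a density of 146 with lactate and 167 with ddH2O, from 204 and 475 reads. Its window overlapped that of the densest KRT8 peak, so that their reads are not separate. The 2 partners of the simple epithelial pair had the densest peaks among the 7 genes, in both IPs. Fold enrichment over input gave another order. Over the summits nearest the 3' end it was 1.84 with lactate and 2.85 with ddH2O for KRT18. It was 3.94 and 4.25 for KRT8, and 4.30 and 6.11 for the less dense KRT19.

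KRT80 (ENSG00000167767), a type II chain, had 2 neighbouring peaks in its 3' UTR whose windows overlapped, so that their reads are not separate. The denser, at chr12:52169492-52170002, had a density of 260 with lactate and 332 with ddH2O, from 344 and 997 reads. KRT10 (ENSG00000186395) had 1 peak, in the 3' UTR at chr17:40818051-40818472 on the minus strand. Its density was 140 with lactate and 387 with ddH2O, from 189 and 1140 reads, and it ranked 675. KRT10 was thus far below KRT18, and in the ddH2O IP it stood above KRT80.

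The ductal type I chain KRT19 (ENSG00000171345) had a density of 62.4 with lactate and 92.7 with ddH2O at chr17:41523518-41524103, from 92 and 248 reads. The ductal type II chain KRT7 (ENSG00000135480) was lower, with 9.81 and 16.5 at chr12:52248609-52249000, from 16 and 37 reads. KRT81 (ENSG00000205426) had 7.61 and 5.06 at chr12:52285919-52286121, from 13 and 10 reads. The window of KRT81 overlapped that of a peak in an intron of its neighbour KRT86, and strand was not known to have been used, so reads of these 2 genes cannot be told apart. By density, the order in the lactate IP was KRT18, KRT8, KRT80, KRT10, KRT19, KRT7 and KRT81, and in the ddH2O IP KRT80 and KRT10 changed places. A ddH2O peak annotated to an intron of KRT86, with 0 reads with lactate and 7 with ddH2O, lay inside the KRT7 span.

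**Figure D1:**
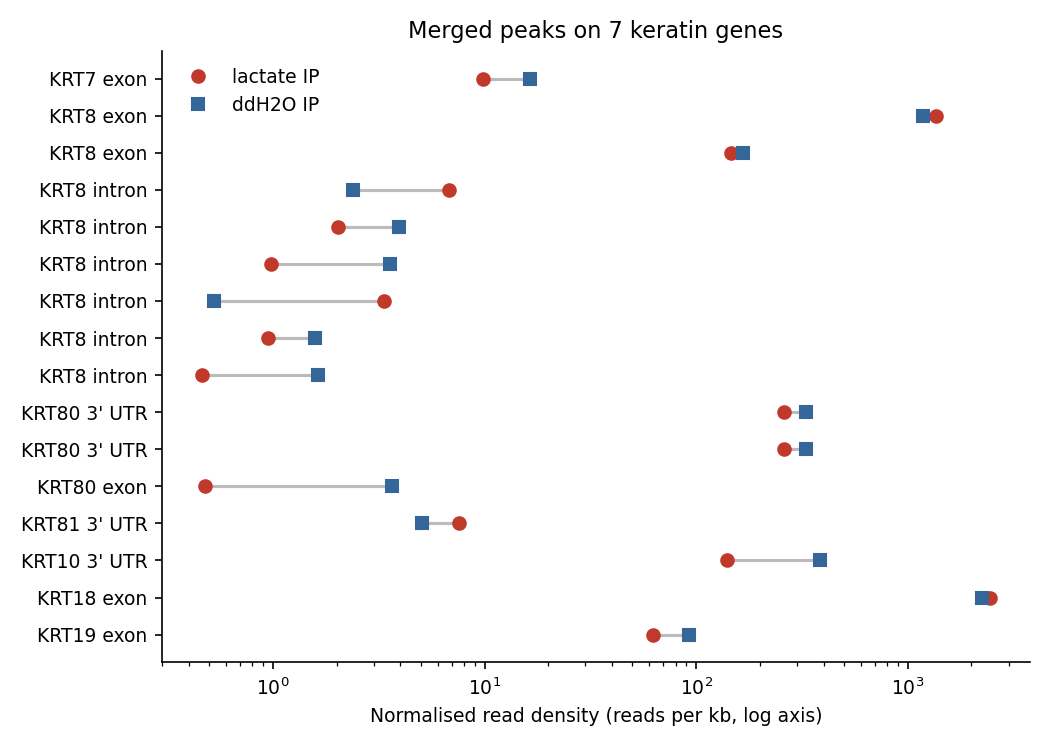
Normalised read density of the 16 merged keratin peaks on a log axis, with the lactate IP as circles and the ddH2O IP as squares, 1 library each and the annotated region beside the gene. KRT18 lies farthest right at 2455 and 2254, and the KRT10 peak shows 140 with lactate and 387 with ddH2O.

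The 6 peaks of KRT8 in introns and 1 in an exon of KRT80 rested on few reads. The intron peaks held between 2 and 16 reads in both IPs together, and the KRT80 exon peak held 0 reads with lactate and 6 with ddH2O. The intron peak with the most reads had 12 with lactate and 4 with ddH2O. These 7 peaks were each below 20 reads, and their ratios are given only as counts.

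The density ratio of lactate over ddH2O was lowest for KRT10, the value that had chosen it. Its log2 ratio was -1.46 (95% interval -1.70 to -1.25). KRT7 followed at -0.75 (-1.74 to 0.09) and KRT19 at -0.57 (-0.94 to -0.23). KRT80 was at -0.35 (-0.54 to -0.18). KRT18 at 0.12 (0.06 to 0.19) and KRT8 at 0.20 (0.11 to 0.28) were slightly above 0, and KRT81 at 0.59 (-0.69 to 1.97) had an interval on both sides of 0. Over all merged peaks the median log2 ratio was -0.50. KRT10, KRT7 and KRT19 lay below it, and KRT80, KRT18, KRT8 and KRT81 above it. Over merged peaks with at least 20 reads the median was -0.20, and KRT80 lay below that one.

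The direction for KRT8 and KRT18 depended on the scaling, while KRT7, KRT10, KRT19 and KRT80 were below 0 under the 3 scalings run. In the lactate IP 80.1% of the summed window reads lay in windows of peaks on MT-RNR2 and MALAT1, against 63.0% in the ddH2O IP. MT-RNR2 is the large mitochondrial rRNA and MALAT1 a nuclear long noncoding RNA. Neighbouring windows can overlap, so 1 read can count in more than 1 window. When reads were scaled by their sums outside those genes, the median over all merged peaks was 0.07, and KRT18 turned to -0.70 (-0.76 to -0.64) and KRT8 to -0.47 (-0.56 to -0.39). KRT10 was at -1.72 (-1.96 to -1.51) and KRT19 at -0.56. When reads were scaled by the sums over all merged peaks, the median was -0.83. KRT10 was then at -2.62, KRT18 at -1.59 and KRT8 at -1.37. KRT8 and KRT18 thus lay below the median of all merged peaks under both scalings by sums, which is 1 comparison. The median merged peak held only 5 lactate and 7 ddH2O reads, and peaks as dense as these were not compared apart. The genes nearest to KRT18 in density also held fewer unscaled reads with lactate than with ddH2O. MAP1B had 2924 and 7510, ATF4 3024 and 6941, and RACK1 3203 and 6586. The scalings by sums differ by a constant for every peak, so the order of the genes is the same under both by construction, and the ratio of KRT10 is the one it was chosen by. KRT81 was above 0 under the 3 scalings with wide intervals. The part of the MT-RNR2 and MALAT1 reads in these ratios was not tested.

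**Figure D2:**
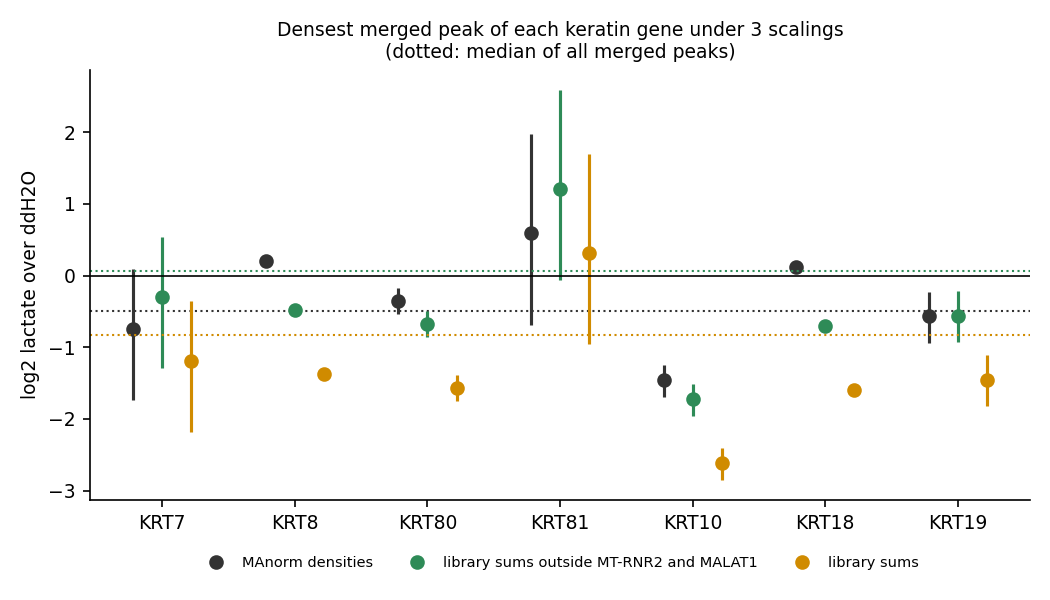
The log2 ratio of lactate over ddH2O for the densest merged peak of each keratin gene under 3 scalings, with 95% counting intervals as bars and dotted lines at the median of all merged peaks. KRT10, chosen by this ratio, is at -1.46, -1.72 and -2.62, and KRT8 and KRT18 are above 0 with MAnorm and below 0 with both other scalings.

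By a fold over 2, 4 of the 16 keratin peaks were lower with lactate, beside 38.6% of all merged peaks, and 2 were higher, beside 13.9%. Among the 9 keratin peaks with at least 20 reads, 1 was lower with MAnorm densities, that of KRT10, beside 18.6% of 37925 such peaks, and 0 were higher, beside 7.65%. With the sums outside MT-RNR2 and MALAT1, 2 of the 16 were lower, beside 20.5%, and 3 were higher, beside 24.5%. With the sums over all merged peaks, 12 were lower, beside 46.0%, and 2 were higher, beside 11.9%. Of the 9 peaks with at least 20 reads, sums outside MT-RNR2 and MALAT1 gave 1 lower, beside 8.77%, and 1 higher, that of KRT81, beside 17.0%. Sums over all merged peaks gave 8 of the 9 lower, beside 37.9%, and 0 higher, beside 3.94%. Since the KRT10 difference was used in naming the genes, nothing is read from these counts.

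The fold enrichment and p of each called peak allowed IP reads over its summit to be computed back for the 26 keratin peaks and input reads over the summit for 24 of them, assuming reads extended to 200 bases in every library. Reads are given per depth of the ddH2O IP. Over the KRT10 summit, IP reads were 148 with lactate and 887 with ddH2O, and input reads were 84.0 and 254. The log2 ratio of lactate over ddH2O was -2.58 in the IP (-2.84 to -2.33) and -1.59 in the input (-2.00 to -1.21), beside medians of -0.93 and -0.44 over 2605 peak pairs with at least 10 input reads in both conditions. KRT10 was thus lower with lactate in the RNA before the pull-down as well as in the IP. Its fold enrichment was 1.76 with lactate and 3.49 with ddH2O. The input ratio was similar, at -1.57 (-2.13 to -1.04), at the KRT80 summit nearer the 3' end. At the other KRT80 summit it was -0.28 (-1.10 to 0.50). For KRT10 the log2 ratio of IP over input, lactate against ddH2O, was -0.99 (-1.44 to -0.53), beside a median of -0.49 over the same pairs.

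For KRT18, IP reads over the summit were 1174 with lactate and 3426 with ddH2O, and input reads were 636 and 1201. For KRT8, they were 1154 and 2709 in the IP and 292 and 637 in the input. The IP over input log2 ratio of lactate against ddH2O was -0.63 for KRT18 (-0.80 to -0.45). KRT8 had -0.11 (-0.34 to 0.13) at this summit and -1.18 (-2.04 to -0.32) at the summit of its second exon peak. At the KRT18 summit the fold enrichment was 1.84 with lactate and 2.85 with ddH2O, below the medians of 3.24 and 3.03 over the whole lists. KRT18 had another lactate peak, with a fold enrichment of 3.40, within the span of its 1 ddH2O peak. The IP over input ratio thus varied between summits of KRT8, while KRT18 had 1 summit called in both lists. No order of KRT8 and KRT18 is read from the ratio. In the 3' UTR of KRT80 the 2 neighbouring summits differed too. The one nearer the 3' end had 0.16 (-0.43 to 0.74) and the other -1.54 (-2.36 to -0.72). KRT19 was at -0.47 (-1.51 to 0.58). KRT7 had an interval of -2.08 to 2.07, from 3 unscaled input reads with lactate and 10 with ddH2O, and gave no direction.

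Over the 7 keratin summits called in both lists with at least 10 input reads in both conditions, IP reads per depth were lower with lactate in 7 and input reads in 7. Over the 2605 pairs the share that was lower was 96.8% for the IP and 77.2% for the input. IP over input was lower in 6 of the 7, beside 79.2% of the pairs. Depth here includes the MT-RNR2 and MALAT1 reads, whose share of the summed window reads was higher in the lactate IP. The part of these reads in the values was not tested.

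**Figure D3:**
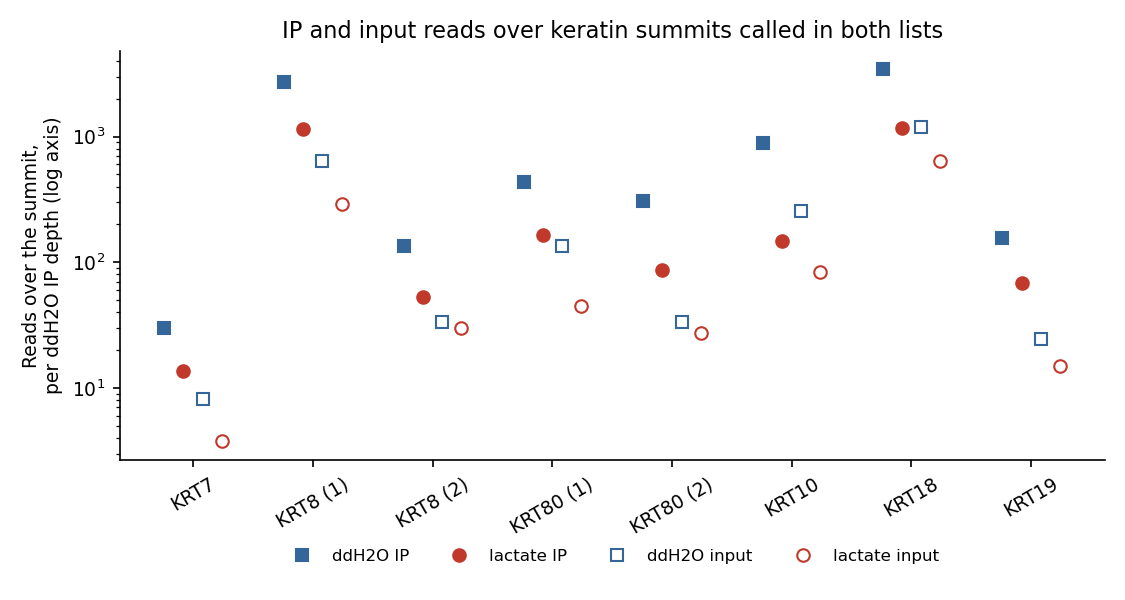
Reads over 8 keratin summits called in both lists, per depth of the ddH2O IP and on a log axis, with filled symbols for IP, open symbols for input, circles for lactate and squares for ddH2O. Numbers in brackets count summits of 1 gene along the chromosome, and KRT10 falls from 887 to 148 in the IP and from 254 to 84.0 in the input.

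Position along the gene was not used in naming the members. The summit of the densest merged peak lay within 1000 bases of the RefSeq 3' end (GRCh38.p14) in 6 of the 7 genes, with KRT7 as the exception at 7058 bases. The same held for 34.7% of 12262 protein-coding genes with a merged peak and a RefSeq position, and for 49.1% of the 4689 with at least 100 reads in that window. KRT7 and KRT81, with 53 and 23 reads, would not be among the latter. KRT10, KRT18, KRT19 and KRT81 are short, spanning 4498, 4052, 4692 and 5622 bases, and no share for genes of like length was computed. The distance was 123 bases for KRT10, 171 for KRT19, 197 for KRT8 and 816 for KRT18. KRT8, KRT18 and KRT19 were annotated as exon although their densest peaks lay at the end of the gene. The 6 intron peaks of KRT8 were 20469 to 45353 bases away. The second exon peak of KRT8 was dense and lay at 1487 bases, and the KRT81 peak, with few reads, lay at 108 bases.

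**Figure D4:**
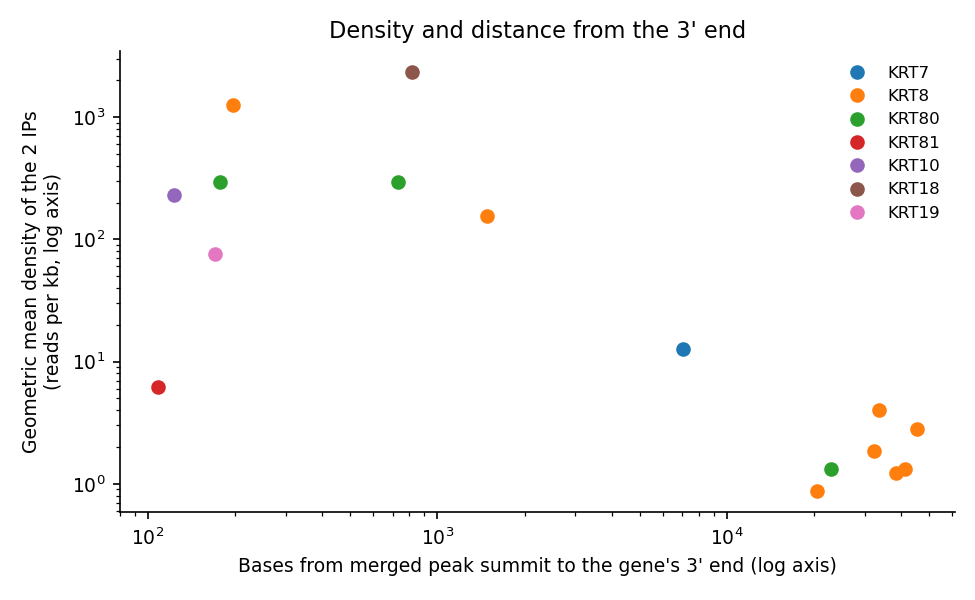
Geometric mean density of both IPs against the distance of the merged peak summit from the 3' end of its gene, both on log axes, 1 point per merged peak. The 2 exon peaks of KRT8 lie at 197 and 1487 bases, and its 6 intron peaks, at low density, at 20469 to 45353 bases.

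Of 48 other keratin genes, 2 had a merged peak. KRT86 had 11 reads with lactate and 9 with ddH2O at its densest peak, and KRT83 had 1 and 3. Keratin pseudogenes are copies that resemble their parent in sequence. In the KRT18 family 16 had a merged peak, with 62 lactate IP reads and 249 ddH2O IP reads in all, which came to 2.27% and 3.08% of the reads of the parent window. In the KRT8 family 7 had a merged peak, at 7.22% and 6.21% of the parent. The densest were KRT8P3, KRT8P12 and KRT8P33, and KRT18P10, KRT18P13 and KRT18P11. How reads that map to several copies were treated is not given in the sources used here, so values of KRT8 and KRT18 are uncertain by the reads shared with these copies.

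Keratin filaments are anchored by desmosomal and plakin proteins. Of 21 such partners and other filament genes, 19 had a merged peak, 2 were lower with lactate by over 2-fold, 1 was higher and 16 lay between by MAnorm densities of their densest peaks, with a median log2 ratio of 0.03. FLG was the 1 partner below 20 reads, and over all merged peaks with at least 20 reads 18.6% were lower and 7.65% higher, with a median of -0.20. The lower ones were FLG, with 0 reads with lactate and 3 with ddH2O, and SYNM, with 33 and 112, and the higher one was EVPL, with 34 and 21. With sums outside MT-RNR2 and MALAT1, 1 was lower, FLG, and 2 were higher, EVPL and PKP3, with a median of 0.17, beside 8.77% lower, 17.0% higher and a median of 0.13 over the merged peaks with at least 20 reads. The densest were the mesenchymal filament gene VIM, at 483 with lactate and 474 with ddH2O, the plakins PPL at 219 and 184 and DST at 190 and 137, and the nuclear lamin gene LMNA at 146 and 119. VIM thus lay below KRT8 and KRT18 and above the other keratins in both IPs.

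Of 8 ductal epithelial markers outside the keratins, EPCAM, CDH1, CLDN4, CLDN7 and MUC1 had a merged peak. The other 3, SOX9 and CFTR among them, had none. The most abundant was the claudin gene CLDN4, with a density of 227 with lactate and 125 with ddH2O, from 315 and 357 reads. Its log2 ratio was 0.86 with MAnorm densities and 0.68 with sums outside MT-RNR2 and MALAT1. MUC1 had 26 and 65 reads, with log2 ratios of -0.75 and -0.43 under the same scalings, and CLDN7 had 11 and 11, with 0.23 and 0.86. EPCAM had 1 and 3 reads and CDH1 0 and 4, both in an intron. By MAnorm densities EPCAM and CDH1 were the 2 lower past 2-fold, 0 were higher, and the median log2 ratio of the 5 was -0.75, beside 38.6% lower, 13.9% higher and a median of -0.50 over all merged peaks. With sums outside MT-RNR2 and MALAT1, 1 was lower, CDH1, 0 were higher, and the median was -0.14. By that scaling 20.5% of all merged peaks were lower and 24.5% higher, with a median of 0.07. EPCAM and CDH1 held at most 4 reads, so the counts rest on few reads. Summed over the densest peak of each of the 5 with a peak, the unscaled reads were 353 with lactate and 440 with ddH2O, most of them from CLDN4. Markers of endocrine, endothelial and keratinocyte cells had 0 genes with a peak, acinar 1 of 9 (CTRB1, with 1 and 3 reads), leukocyte 2 of 4 (CD68 with 30 and 62 reads, PTPRC with 0 and 3) and fibroblast 3 of 6 (COL1A1 with 47 and 50, PDGFRB with 0 and 2, ACTA2 with 0 and 3). KRT10 is an epidermal keratin, and the epidermal keratins KRT1, KRT5 and KRT14 had no peak.

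The protein-coding genes nearest to KRT10 in both log2 densities, over the 2 IPs, were MKKS, TOMM7 and ECH1. MKKS had 140 with lactate and 348 with ddH2O. Nearest to KRT18 were MAP1B, ATF4 and RACK1, of which MAP1B had 2622 and 2095.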

How the data were processed

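NSUN2 RIP-seq libraries of PANC-1 were prepared with the SMART-Seq v4 kit. The submitters' processing notes name fastp 0.20.1, HISAT2 2.1.0, MACS2 2.2.7.1, bedtools 2.29.2, HOMER 4.11.1 and DiffBind, with build GRCh38. In the peak lists the authors deposited, for each IP against its own input, the fold enrichment (a ratio), the -log10 p and the q-value of each peak. The deposited merged table gives MAnorm read density, a signal, for each IP. Its columns of M, A and P hold the authors' own comparison and were not used.

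Reads per 2000-base window were computed back from the densities with 1 read added to each, and came out whole within 0.1 in 99.998% of windows. IP and input reads over summits were computed back from fold and p (93.3% of lactate and 92.8% of ddH2O peaks), assuming 200-base extension; depth per library follows from the same values and was chosen after seeing the data. Both steps were run on data simulated from the same formulas, which cannot check the assumed extension or the model of the peak caller. Intervals are exact Clopper-Pearson, and those of IP over input are log-normal. Members and lists were chosen with earlier results of these data known. Named genes were all members, other keratins with a peak, the densest pseudogenes and partners, the 3 nearest genes by density and genes of the cell type marker lists. FLG, SYNM, EVPL and PKP3 fall outside this rule and were named after their values were seen. Values were computed in Python 3.11.15 with scipy 1.17.1, numpy 2.4.6 and pandas 2.3.3, and plotted with matplotlib 3.10.9. One marker of the ductal list is not reported here.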

Additional observations from a re-analysis of the deposited data

How the results depend on the processing

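With a fold enrichment of at least 4, 3 lactate and 5 ddH2O keratin peaks were left. The share of the whole lists at that fold is not given here, so nothing is read from these counts. With a q-value below 0.05, or an overlap of 50% of both peaks, counts stayed within 1.5 times. With reads scaled by their sums outside MT-RNR2 and MALAT1, the log2 ratio of the densest peak moved beyond its counting interval to -0.47 for KRT8, -1.72 for KRT10, -0.70 for KRT18 and -0.67 for KRT80. With sums over all merged peaks it moved to -1.37 for KRT8, -2.62 for KRT10, -1.59 for KRT18, -1.45 for KRT19 and -1.56 for KRT80. With IP reads over the summit per depth of the peak caller, an alternative chosen after seeing the data, it was -1.23 for KRT8, -2.58 for KRT10, -1.55 for KRT18, -1.17 for KRT19 and -1.82 for KRT80. KRT8 and KRT18 thus changed sign under these 3 alternatives. KRT7 and KRT81 stayed within their intervals under the alternatives run for them. The count of keratin peaks lower past 2-fold, 4 as reported, was 2 with sums outside MT-RNR2 and MALAT1, 12 with sums over all merged peaks, 7 with a fold over 1.5 and 1 with at least 20 reads. For a fold over 1.5 no share of all merged peaks is given here, so nothing is read from the 7. The count of higher peaks, 2 as reported, was 0 with at least 20 reads. With that minimum and another scaling, added after seeing the data, 1 was lower and 1 higher by sums outside MT-RNR2 and MALAT1, and 8 were lower and 0 higher by sums over all merged peaks. The cause of these shifts was not tested. No paired analysis was possible because each group had 1 library. KRT7, KRT81 and the intron peaks of KRT8 held few reads, so counting intervals of KRT7 and KRT81 were wide.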
